A study of Mus musculus with 12 samples.

Results

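Gene expression in mouse corneas that had been injured with benzalkonium chloride (BAK) and given the biologic UCS was compared with expression in uninjured corneas, to describe what still differed after UCS. The comparison used 6 of the 12 RNA sequencing libraries of the study, 3 labelled Control and 3 labelled UCS, chosen by the treatment in their labels. Control corneas had neither injury nor drops. UCS corneas received 5 µl of 0.2% BAK in each eye every day for 14 days and 5 µl of 20% UCS in drops given 3 times a day for 10 days. Vehicle corneas, 3 further libraries, received BAK and no biologic, and UCPRP corneas, the last 3, received BAK and 20% UCPRP on the UCS schedule. The series title calls the biologics cord blood-derived and the labels do not expand the abbreviations. Every library was made from a pool of 6 corneas from 3 mice, so differences between single animals cannot be seen. The order of injury and drops, the time of harvest, and the strain, sex and age of the mice were not stated in the sources used here. Of 19702 genes in the table, 16124 passed the filter on low counts and were tested.

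BAK is a quaternary ammonium preservative of eye drops that damages the ocular surface when it is applied repeatedly. The corneal epithelium is a stratified, non-keratinised sheet whose cells make keratin 12, and it is renewed from the limbus at the corneal rim. Beyond the limbus lies the conjunctiva, whose epithelium makes keratins 4, 13 and 19 and holds goblet cells that secrete gel-forming mucins. Below the epithelium, keratocytes maintain the collagenous stroma, sensory nerves of the trigeminal ganglion supply the surface, and resident macrophages and dendritic cells keep watch for microbes.

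The 6 libraries held 18.55 M to 20.44 M estimated counts, the extremes being UCS replicate 2 and Control replicate 2. Levels are given as CPM, counts scaled to a common library size after TMM normalisation. Correlations of log2 CPM ran from 0.965 to 0.986 between Control libraries and from 0.972 to 0.976 between UCS libraries. On the first principal component, with 39.4% of the variance, Control libraries lay between -76.7 and -52.3, UCS libraries between 5.48 and 30.7, and Vehicle libraries between 29.5 and 41. RNA of neighbouring eye tissue was present in unequal amounts. The summed 16 lens genes took 0.0785% to 1.7% of Control counts and 0.0227% to 1.6% of UCS counts, and the 17 retina genes took 0.321% to 1.09% and 0.511% to 1.13%. None of the 16 lens, 17 retina, 16 skeletal muscle or 9 iris genes was called by edgeR's quasi-likelihood test, beside 10.9% of all genes. DESeq2 called 1 retina and 1 iris gene lower, and limma-voom called 1 iris gene lower. The lens and retina shares varied widely within each group, so the absence of calls does not show equal amounts. The part of these tissues in the results below was not tested except for the retina and muscle lists, which were entered as covariates. Dbp, a clock gene, was below Arntl in Control replicate 3 and UCS replicate 1 and above it in the other 4 libraries, so each group held 1 library of the other clock phase.

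Many genes still differed from uninjured cornea after UCS. At an adjusted p under 0.05 in edgeR's quasi-likelihood test, 1032 genes (6.4%) were higher in UCS and 721 (4.47%) were lower. A difference of at least 1 on the log2 scale was reached by 608 of the higher genes (3.77%) and 293 of the lower genes (1.82%). All 3 UCS libraries lay above all 3 Control libraries for 2398 genes (14.9%) and below them for 2261 (14%). The median log2 fold change of all tested genes was -0.01. Gene lists below were chosen with earlier results of these data known, and some genes stand on more than 1 list. The share of a list's members called is set beside the share of all genes as a description and is not a test. UCS replicate 3 was the highest UCS library for 531 of the 1032 higher genes and the lowest for 340 of the 721 lower ones. Without it, 662 genes were higher and 427 lower. Without Control replicate 1, 655 were higher, and without UCS replicate 2, 445 were lower. A standard error (SE) given with a log2 fold change below is the one implied by the F statistic of the test. In the main fit n is 3 pools per group, and a fit that leaves out 1 library has 1 pool fewer in that group. A fit of only the libraries with Dbp above Arntl has 2 Control and 2 UCS pools, so it differs in sample size as well as clock phase. Which of these a lost call follows was not tested.

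**Figure D1:**
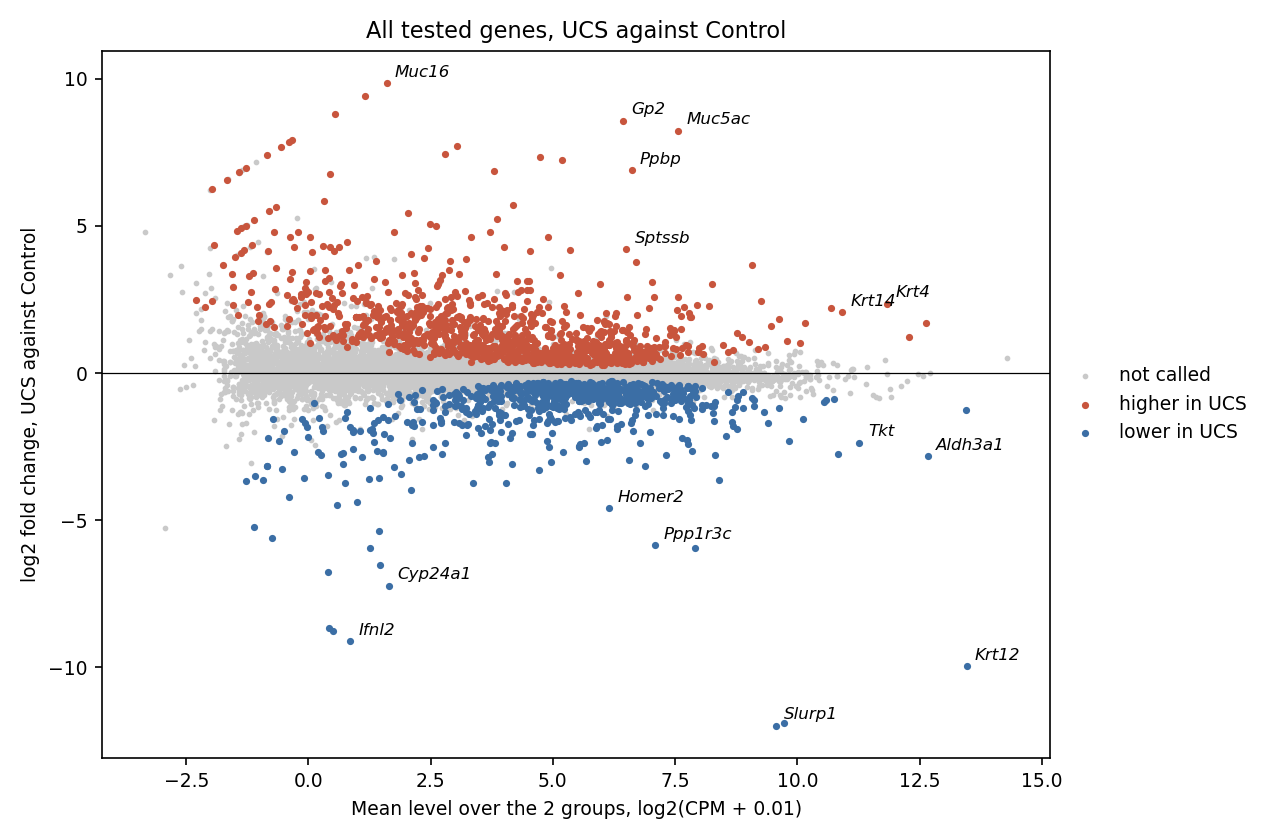
Each point is a tested gene, with its mean level over the UCS and Control groups on the x axis (log2 of CPM plus 0.01) and the log2 fold change of UCS against Control on the y axis; coloured points are the 1032 higher and 721 lower genes called by edgeR. Slurp1 and Krt12 are among the lowest labelled points and Muc5ac and Gp2 among the highest; values of genes with 0 counts in a group, such as Muc16 and Ifnl2, depend on the prior count of the fit.

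Transcripts of the differentiated corneal surface were far lower after UCS, and Slurp1, Lypd2 and Krt12 had the 3 largest decreases of the called genes that averaged 5 CPM or more in Control. Krt12 (chr11:99415664-99422593, GRCm38.p6), the keratin that marks corneal epithelium, stood at 18900, 32870 and 15900 CPM in the Control libraries and at 18.9, 40.3 and 8.68 CPM in the UCS libraries. Every UCS library was thus far below every Control library, and Krt12 went from between 1.61% and 2.71% of all counts to between 0.000899% and 0.00406%. Krt12 fell by 9.96 on the log2 scale (SE 1.66, adjusted p = 0.00284 by edgeR). The call was not made when only the 8 of 12 libraries with Dbp above Arntl were fitted (-10.06, adjusted p = 0.0754).

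Slurp1 (chr15:74726644-74728023), a secreted Ly6 protein of the healthy corneal surface, stood at 1339, 2109 and 1091 CPM in Control and at 0.638, 0.161 and 0.306 CPM in UCS. Its neighbour Lypd2 (chr15:74732246-74734795) stood at 1409, 2365 and 1319 CPM in Control and at 0.425, 0.589 and 0.306 CPM in UCS. The libraries of the groups did not overlap for either gene. Slurp1 fell by 11.98 on the log2 scale (SE 1.43, adjusted p = 0.000436) and Lypd2 by 11.90 (SE 1.48, adjusted p = 0.000533). Spink7, a serine protease inhibitor of stratified epithelia, had 1.8 to 4.09 CPM in Control and no count in UCS, at least 16.8-fold lower against a floor of 3 counts per library.

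The corneal crystallin Aldh3a1 (chr11:61208510-61218418), an aldehyde dehydrogenase that makes up a large share of corneal protein, stood at 10220, 17380 and 6644 CPM in Control and at 2150, 1685 and 965 CPM in UCS. Transketolase, Tkt (chr14:30549131-30574724), the other abundant enzyme-crystallin of the cornea, stood at 3977, 5460 and 2994 CPM in Control and at 846, 973 and 590 CPM in UCS. Aldh3a1 fell by 2.83 on the log2 scale (SE 0.44, adjusted p = 0.00199) and Tkt by 2.37 (SE 0.25, adjusted p = 0.000228). For both genes every UCS library lay below every Control library, and neither was lost to the extent that Krt12 was. The water channel Aqp5 (-2.76, adjusted p = 0.00111), the mitochondrial transport protein Mgarp (-2.30, adjusted p = 0.000526), the basal keratin Krt5 (-1.27, adjusted p = 0.00941) and the uroplakin Upk1b (-1.19, adjusted p = 0.00927) were also lower. Krt5 was not called when only the 2 groups' libraries were fitted or only the libraries with Dbp above Arntl were.

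Of the 20 corneal epithelium genes listed, all tested, 9 were lower and 1 higher, beside 4.47% and 6.4% of all genes. Their median log2 fold change was -0.54. The higher gene was Krt14, the partner keratin of Krt5 in basal cells. It stood at 496, 859 and 867 CPM in Control and at 2280, 3486 and 3606 CPM in UCS, so the groups were apart (2.08, SE 0.28, adjusted p = 0.000795). Among 22 corneal epithelial transcription factors, 3 were lower and 2 higher (median -0.12), beside 4.47% and 6.4% of all genes. These became 1 lower without UCS replicate 2, and 1 higher without Control replicate 1 or 2 or UCS replicate 1 or 3. Pax6, the eye-field factor that is needed for corneal identity, had 640, 705 and 622 CPM in Control against 576, 542 and 480 in UCS. The groups did not overlap, yet the difference of -0.30 (SE 0.13) was not called (adjusted p = 0.172). Tfap2c, an AP-2 factor of surface ectoderm, was lower (-1.16, adjusted p = 0.00726), and the homeobox gene Barx2 rose from between 5.15 and 14.6 CPM to between 37.2 and 66.7 CPM (2.25, adjusted p = 0.00166).

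Genes with the smallest adjusted p among those lowered lay outside the corneal epithelium list. Ppp1r3c (chr19:36731731-36736604), a subunit that targets protein phosphatase 1 to glycogen, stood at 236, 306 and 262 CPM in Control and at 3.72, 5.41 and 4.90 CPM in UCS. It fell by 5.84 on the log2 scale (SE 0.31, adjusted p = 5.33e-06). The scaffold protein gene Homer2 (chr7:81600481-81706925) stood at 129, 164 and 114 CPM in Control and at 4.62, 6.37 and 5.92 CPM in UCS, a fall of 4.59 (SE 0.23, adjusted p = 5.33e-06). For both genes the spread within a group was small beside the gap. The kinesin-family gene Kif26a (-3.01), the lectin-like receptor gene Klrg2 (-2.49) and the thiamine transporter Slc19a2 (-2.36) followed, with adjusted p from 5.33e-06 to 3.35e-05.

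Several genes of middling Control level were nearly absent after UCS. Cyp24a1, the hydroxylase that inactivates vitamin D, had 7.05, 7.24 and 4.35 CPM in Control and 2 counts in all 3 UCS libraries together, a ratio of total counts of 176 (95% counting interval 48.4 to 1460). The homeobox gene Dbx2 had 4.4 to 6.46 CPM in Control and 3 counts in UCS, a ratio of 103 (34.9 to 502). Fam83a, a gene linked to EGF receptor signalling, fell from between 360 and 622 CPM to between 4.09 and 14.5 CPM (-5.93, adjusted p = 0.000354). The gastrokine Gkn1 (-5.37), Csprs (-3.98), Cdsn (-3.74) and the alcohol dehydrogenase Adh6b (-3.73) were further genes with large decreases, chosen among those whose groups did not overlap.

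**Figure D2:**
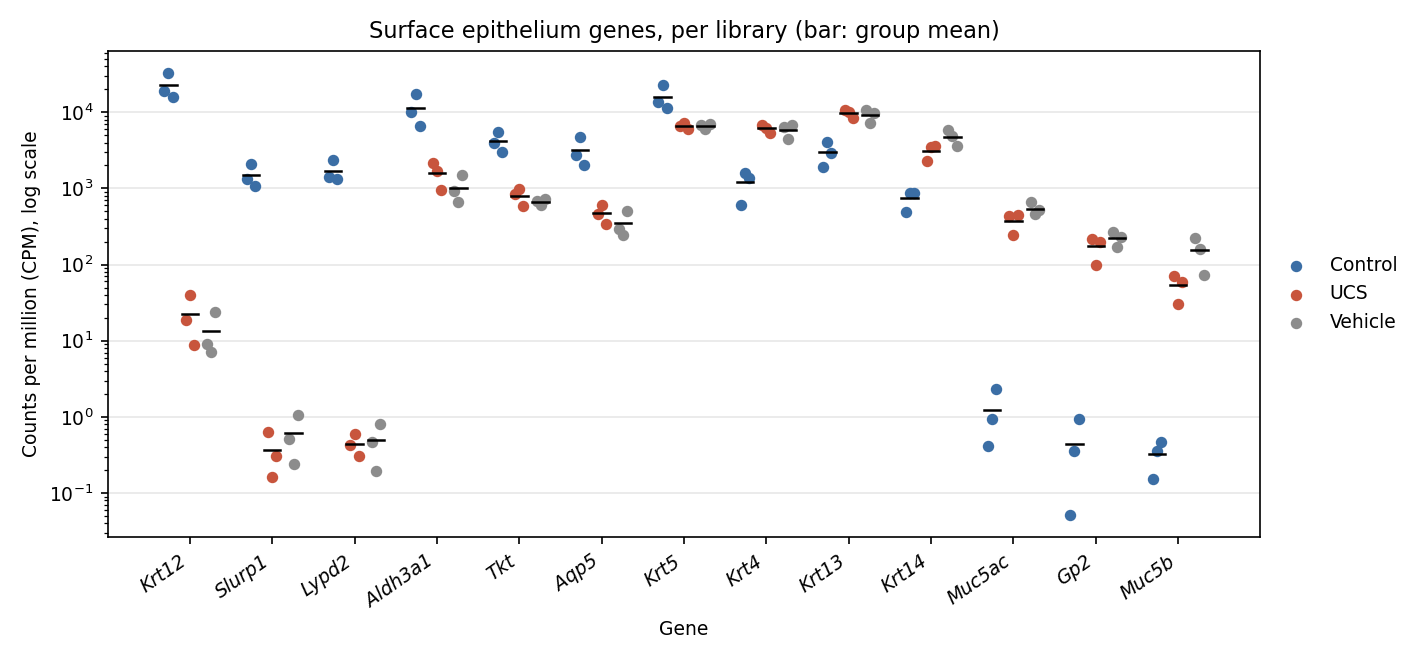
Points are single libraries of Control, UCS and Vehicle corneas and bars are group means, with CPM on a log axis for 13 surface genes. Krt12, Slurp1 and Lypd2 are high in Control and low in UCS, Aldh3a1 and Tkt are lowered less, and Muc5ac, Gp2 and Muc5b are below 3 CPM in every Control library and above 30 CPM in every UCS library.

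Goblet cell genes were higher after UCS. The data held 17 listed goblet genes, of which 15 were tested. Of these 15, 12 were higher and none lower, beside 6.4% and 4.47% of all genes, with a median log2 fold change of 1.98. Muc5ac (chr7:141788958-141819227), the gel-forming mucin of conjunctival goblet cells, stood at 0.412, 0.949 and 2.33 CPM in Control and at 437, 244 and 444 CPM in UCS (8.24, SE 0.56, adjusted p = 2.62e-05). Gp2 (chr7:119442537-119459272), not on the list, a GPI-anchored glycoprotein that binds bacteria, stood at 0.0515, 0.356 and 0.932 CPM in Control and at 220, 99.8 and 200 CPM in UCS (8.57, SE 0.60, adjusted p = 2.82e-05). Every UCS library was far above every Control library for both genes, and Gp2 in Control replicate 1 was under the level of 3 counts, which is 0.153 to 0.178 CPM in these libraries.

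The second gel-forming mucin, Muc5b, rose from between 0.154 and 0.466 CPM to between 30.3 and 70.8 CPM (7.33, adjusted p = 5.7e-05). Tff1, a trefoil peptide secreted with mucin, rose from between 0 and 0.119 CPM to between 7.77 and 22.2 CPM (7.45, adjusted p = 6.68e-05). Its Control values were all under the level of 3 counts, so the size of its fold change was not resolved. Agr2, a disulfide isomerase needed for mucin folding (4.18), Gcnt3, a mucin-type glycosyltransferase (4.12), and Spdef, a transcription factor of goblet cell differentiation (2.97), were higher too. In a bulk sample of whole cornea, more cells of a type and more RNA per cell cannot be told apart, and the same holds for fewer cells and less RNA.

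The membrane mucin list of 9 genes also held Mcam and Mal, which are not mucins. Of the 9, 3 were higher and 1 lower, beside 6.4% and 4.47% of all genes. DESeq2 called 5 higher and 2 lower. Muc16, which forms part of the glycocalyx of the tear film, had no count in any Control library and 7.86, 4.66 and 5.62 CPM in UCS, at least 37.2-fold higher. Muc1 rose from between 42.8 and 94.6 CPM to between 256 and 367 CPM (2.15, adjusted p = 0.000443). Muc15 moved the other way, from between 113 and 150 CPM to between 56.7 and 70.9 CPM (-1.06, adjusted p = 0.0012). Muc4, a large membrane mucin at 2776 to 3208 CPM in Control and 3590 to 4490 CPM in UCS, was not called by edgeR (0.45, adjusted p = 0.154) and was by DESeq2 (adjusted p = 0.0262).

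Keratins of conjunctival and simple epithelia were higher for 5 of 8 members and lower for none (median 1.58), beside 6.4% and 4.47% of all genes. Krt4 stood at 610.2, 1601 and 1379 CPM in Control and at 6840, 6220 and 5357 CPM in UCS (2.36, SE 0.33, adjusted p = 0.00113). Krt13, its partner in mucosal epithelia, stood at 1911, 4126 and 2928 CPM in Control and at 10810, 9945 and 8476 CPM in UCS (1.71, SE 0.28, adjusted p = 0.00279). In both cases the groups were apart. Krt7, of simple and glandular epithelia, rose by 2.44 (adjusted p = 0.00103). With only the libraries with Dbp above Arntl, 2 members were called and Krt13 was not (1.60, adjusted p = 0.0772).

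Other genes with large gains in CPM or a small adjusted p were not on a list named so far. Cbr2, a carbonyl reductase, stood at 405, 791 and 561 CPM in Control and at 3037, 2539 and 2634 CPM in UCS (2.22, adjusted p = 0.0005). The serpin Serpinb3a rose by 3.66 (adjusted p = 0.000424), the adhesion molecule Ceacam1 by 1.70 (adjusted p = 0.00546) and the peptidoglycan recognition protein Pglyrp1 by 1.84 (adjusted p = 0.00165). Sptssb, a subunit that sets the chain length used by serine palmitoyltransferase, had the smallest adjusted p of the higher genes, at 7.47, 10.2 and 10.2 CPM in Control and 191, 161 and 162 CPM in UCS (4.21, SE 0.23, adjusted p = 5.33e-06). Fut9, the fucosyltransferase that makes the Lewis x epitope (3.12, adjusted p = 9.41e-06), and the Golgi protein gene Golm1 (1.98, adjusted p = 2.62e-05) followed.

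Transcripts of glands near the eye were scarce but present. Of 4 tested lacrimal and Harderian gland genes 1 was called, beside 10.9% of all genes called either way. This gene, the secretoglobin Scgb2b2, had no count in Control and 5.15, 2.62 and 5.62 CPM in UCS, at least 27.5-fold higher. Esp6, of the exocrine gland-secreted peptide family, stood at 0.103, 0.415 and 0.88 CPM in Control and at 28.2, 131 and 57.3 CPM in UCS (7.25, SE 0.80, adjusted p = 0.000288). How far adnexal tissue in the pools moves with these values was not tested.

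Of 13 limbal and progenitor genes 3 were higher and 1 lower, beside 6.4% and 4.47% of all genes. Only 1 was higher without Control replicate 1 or 3 or UCS replicate 1 or 3. Gpha2, a glycoprotein hormone subunit that marks limbal stem cells, stood at 34, 49.8 and 41.3 CPM in Control and at 64.8, 138 and 108 CPM in UCS (1.31, SE 0.23, adjusted p = 0.00345). Abcg2, the efflux transporter of side-population cells, stood at 26.4, 34.8 and 25.2 CPM in Control and at 14, 14.5 and 12.3 CPM in UCS (-1.08, SE 0.15, adjusted p = 0.000913). The groups were apart for both genes and in opposite directions. Krt15, a keratin of limbal and conjunctival basal cells, had 1832, 4367 and 2782 CPM in Control and 7822, 7147 and 5961 CPM in UCS (1.22, adjusted p = 0.0278). Its call was lost without Control replicate 1 or 3 or any single UCS library, the highest of these adjusted p being 0.0838. It was also lost with only the 2 groups' libraries (adjusted p = 0.0836) and with only the libraries with Dbp above Arntl (adjusted p = 0.244).

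Of 7 basal and wound keratins, 2 were higher and 1 lower, beside 6.4% and 4.47% of all genes. Krt17, a keratin of wounded epithelium, stood at 27.9, 106 and 114 CPM in Control and at 233, 409 and 588 CPM in UCS (2.31, SE 0.49, adjusted p = 0.0106), with an adjusted p of 0.0528 when only the 2 groups' libraries were fitted. Krt6a, also wound-induced in skin, was high in both groups, at 4185 to 7344 CPM in Control and 4274 to 4616 CPM in UCS, and was not called (-0.28, adjusted p = 0.535). Its reads may be divided with the near-identical Krt6b. Cornified envelope genes, which harden the surface of skin, were called in both directions, 3 higher and 3 lower of 21 tested, beside 6.4% and 4.47% of all genes. The higher count was 1 without Control replicate 1 or 2 or UCS replicate 3 and 8 by DESeq2. Corneodesmosin, Cdsn, fell from between 9.89 and 27.8 CPM to between 1.01 and 1.93 CPM, and Lce3c fell from 49 counts in Control to 1 in UCS, a ratio of 50.3 (95% counting interval 8.62 to 2030). Sprr3 had no count in Control and 1.17 to 2.15 CPM in UCS, at least 9.21-fold higher.

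The small proline-rich genes varied widely within the UCS group. Sprr2d stood at 0.478, 2.95 and 20.5 CPM in UCS replicates 1 to 3 and Sprr2f at 7.12, 6.37 and 70.8 CPM, against at most 0.414 and 1.01 CPM in Control. UCS replicate 3 was by far the highest for both. The rise of Sprr2d (5.42, adjusted p = 0.024) was not called without UCS replicate 3 or without any single Control library, with an adjusted p of up to 0.105, nor under limma-voom (adjusted p = 0.254). Sprr2f (5.23, adjusted p = 0.00593) kept its call in each such fit but not under limma-voom (adjusted p = 0.127) or with only the 2 groups' libraries (adjusted p = 0.0558). Reads of these near-identical genes may be divided between them. Krt10, the keratin of cornified epidermis, had 9.17 to 12.3 CPM in Control and 17.4 to 26.4 CPM in UCS and missed the threshold in edgeR (0.99, adjusted p = 0.0751), though not in DESeq2 (adjusted p = 0.0239) or with only the 2 groups' libraries (adjusted p = 0.0327).

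Desmosomal genes, whose products rivet epithelial cells together, were lower for 7 of 14 members and higher for 1, with a median of -0.86. Of all genes 4.47% were lower and 6.4% higher. Dsg1a, a desmoglein of upper cell layers, stood at 629, 646 and 597 CPM in Control and at 59.7, 65.7 and 23.8 CPM in UCS (-3.65, SE 0.46, adjusted p = 0.000592). Its reads may be shared with the near-identical Dsg1b and Dsg1c, which were lower as well. Desmocollin Dsc3 (-1.15, adjusted p = 0.00224), plakophilin Pkp3 (-1.10, adjusted p = 0.00428) and desmoplakin Dsp (-0.91, adjusted p = 0.00741) fell with no overlap between groups. Tight junction genes were called for 5 of 19 members, beside 10.9% of all genes called either way. Of these, Cldn8, a claudin of sodium-tight epithelia, rose from between 3.45 and 3.97 CPM to between 9.48 and 15.7 CPM (1.68, adjusted p = 0.00157). Leaving out any one of the 6 libraries left at most 1 of the 3 lower calls of that list.

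Interferon-stimulated genes, which encode antiviral proteins and are switched on by ISGF3 at the interferon-stimulated response element, were lower in UCS than in uninjured cornea. Of 28 tested members 18 were lower and none higher, with a median of -0.90, beside 4.47% of all genes lower. This list too was chosen with earlier results known. Without single libraries the count lay between 11, without UCS replicate 1 or 2, and 19, without Control replicate 3, and without Control replicate 2 it was 12. Promoters of 22 of the 29 members in the table were found in RefSeq (GRCm38.p6, 250 bases before to 50 after the start). The core of the response element was searched as GAAA, any 2 bases and GAAA, on both strands, and matches may overlap. It occurred in 12 of the 22, in 8 of 14 lower genes and in 4 of 7 tested genes not called, against 3.44% of all 32851 promoters and 3.8% of the 12704 tested genes with a promoter. Those 4 genes were Stat2, Bst2, Gbp2 and Gbp3.

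The stretches below are shown because they hold the matches before the start in 6 of the lower genes, the other two having theirs after it. Each runs along the gene's sense strand from 20 bases before the first match to 20 after the last or to the transcription start, with the matched bases in capitals.
Isg15, chr4:156200855-156200916, minus strand: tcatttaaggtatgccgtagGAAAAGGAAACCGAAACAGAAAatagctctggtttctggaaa
Ifit1, chr19:34640765-34640833, plus strand: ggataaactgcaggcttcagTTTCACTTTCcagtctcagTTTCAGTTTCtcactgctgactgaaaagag
Ifit3, chr19:34583353-34583436, plus strand: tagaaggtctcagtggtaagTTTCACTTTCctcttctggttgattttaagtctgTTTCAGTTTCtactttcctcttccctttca
Oas1a, chr5:120907526-120907565, minus strand: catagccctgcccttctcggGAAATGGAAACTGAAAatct
Oas3, chr5:120777705-120777754, minus strand: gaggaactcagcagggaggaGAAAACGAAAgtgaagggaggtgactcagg
Rsad2, chr12:26456543-26456592, minus strand: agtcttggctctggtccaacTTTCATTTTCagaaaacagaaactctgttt
Isg15 holds 3 overlapping matches, the first beginning 78 bases before the start. A match describes the letters only and does not show that a factor binds.

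Isg15, a ubiquitin-like antiviral modifier, stood at 118, 179 and 92.3 CPM in Control and at 40.4, 31.9 and 45.2 CPM in UCS (-1.73, SE 0.28, adjusted p = 0.00227). Ifi27l2a, an interferon-induced membrane protein gene, stood at 72.3, 93.3 and 71.7 CPM in Control and at 13.4, 13.6 and 17.3 CPM in UCS (-2.42, SE 0.20, adjusted p = 6.68e-05). Rsad2, the enzyme viperin, stood at 23.1, 49.3 and 13.9 CPM in Control and at 7.54, 6.53 and 7 CPM in UCS (-2.03, SE 0.42, adjusted p = 0.00942). For these 3 genes every UCS library was below every Control library.

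The oligoadenylate synthetase genes Oas2, Oas3 and Oas1a, whose products sense double-stranded RNA, fell together, whereas the related Oasl2 was not called. Oas2 stood at 221, 218 and 168 CPM in Control and at 45.2, 42 and 65.7 CPM in UCS (-1.99, adjusted p = 0.00588). Oas3 fell by 1.86 (adjusted p = 0.00207) and Oas1a by 1.497 (adjusted p = 0.00724). Ifi44 (-1.56, adjusted p = 0.00389) and Irf7, the factor that amplifies interferon transcription (-1.01, adjusted p = 0.00449), were lower too. Oas2, Oas1a and Ifi44 were not called in the libraries with Dbp above Arntl alone, with adjusted p from 0.06 to 0.0926.

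Of the RNA-binding Ifit genes, Ifit1 and Ifit3 were lower by a smaller margin over their spread, and Ifit2 was not called. Ifit1 had 201, 272 and 126 CPM in Control and 58.5, 59 and 110 CPM in UCS (-1.40, adjusted p = 0.0334), and Ifit3 fell by 1.15 (adjusted p = 0.0193). Ifit1 lost its call without Control replicate 1 or 2 or UCS replicate 1 or 2, and Ifit3 without Control replicate 2 or any single UCS library, with adjusted p of up to 0.128 and 0.0776.

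Of the tested members 10 were not called, among them Gbp2 and Bst2. Gbp2, a GTPase induced mainly by interferon gamma, stood at 91.5, 80.9 and 382 CPM in UCS against 79.5 to 151 CPM in Control. Only UCS replicate 3 was high, and the difference (0.80, adjusted p = 0.44) became -0.31 without it. Bst2 (tetherin) lay at 27 to 46.4 CPM in Control and at 32.1 to 41.5 CPM in UCS and was not called (0.02, adjusted p = 0.982).

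A ligand of the family was detected in Control and not after UCS. Ifnl2 (chr7:28508784-28510532), a type III interferon that acts on epithelia, had 3.24, 3.56 and 3.94 CPM in Control and no count in the 3 UCS libraries, at least 22.7-fold lower. Ifnl3 had 2.37, 3.26 and 2.8 CPM in Control and none in UCS, at least 17.8-fold lower. These are near-identical neighbours whose reads may be divided, so the pair is 1 observation. Their receptor subunit Ifnlr1 had 22.9 to 26.8 CPM in Control and 17.2 to 26.6 CPM in UCS and was not called (-0.24, adjusted p = 0.548). The vehicle-treated libraries held 0 to 0.051 CPM of Ifnl2 and no count of Ifnl3.

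**Figure D3:**
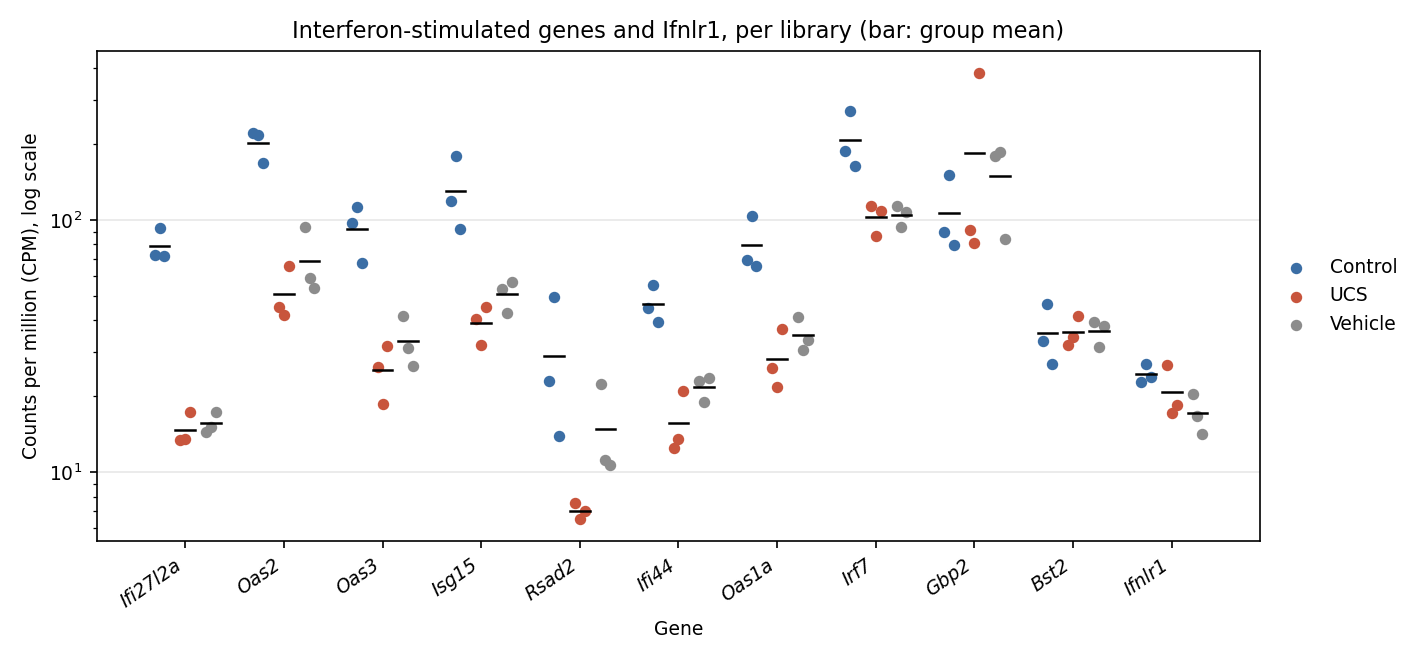
Points are single libraries of Control, UCS and Vehicle corneas and bars are group means, with CPM on a log axis for 10 interferon-stimulated genes and the receptor gene Ifnlr1. From Ifi27l2a to Irf7 every UCS library lies below every Control library, whereas Gbp2, Bst2 and Ifnlr1 overlap.

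Genes of macrophages and monocytes were higher after UCS for 19 of 25 tested members and lower for none, with a median of 1.38, beside 6.4% of all genes higher. The list was chosen with earlier results known, so the contrast with all genes is description only. Lyz2, the lysozyme of myeloid cells, stood at 58.9, 110 and 89.3 CPM in Control and at 249, 320 and 499 CPM in UCS (2.05, SE 0.27, adjusted p = 0.000772). C1qa, a chain of complement C1q made by tissue macrophages, stood at 29.7, 37.7 and 37.1 CPM in Control and at 71.9, 95.3 and 105 CPM in UCS (1.38, SE 0.14, adjusted p = 0.000194). In both cases UCS replicate 1 was the lowest and replicate 3 the highest UCS library, and all were above Control.

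Ccr2, the receptor that brings in blood monocytes, rose from between 2.16 and 3.44 CPM to between 7.07 and 18.2 CPM (2.04, adjusted p = 0.00274). The scavenger receptor Msr1 (2.21, adjusted p = 0.00453) and the membrane-spanning gene Ms4a7 (1.93, adjusted p = 0.000233) were higher. Of the complement genes 12 of 18 were higher and none lower (median 1.07), beside 6.4% and 4.47% of all genes. C1qb (1.53, adjusted p = 0.000194) and the anaphylatoxin receptor C3ar1 (1.64, adjusted p = 0.000403) were among those higher. The C1q genes stand on both the complement and the macrophage list, so the counts share members. Without single libraries, 16 to 20 macrophage and 9 to 10 complement genes were called higher.

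MHC class II and dendritic cell genes were higher for 13 of 18 members and lower for none (median 1.34), beside 6.4% and 4.47% of all genes. H2-Ab1, a class II chain that presents peptides to CD4 T cells, stood at 25.4, 53.8 and 38.7 CPM in Control and at 55.8, 84 and 175 CPM in UCS (1.42, adjusted p = 0.0278). Its groups were apart only narrowly, and UCS replicate 3 was the highest of the 6 libraries. Without that library 5 members were called, without Control replicate 1 there were 6 and without Control replicate 3 there were 7. With only the 2 groups' libraries 4 were called, and with only the libraries with Dbp above Arntl 5. H2-Ab1 was lost in each of these 5 fits, with an adjusted p of up to 0.115. The integrin Itgax (1.79, adjusted p = 0.00216) and the homing receptor Ccr7 (2.97, adjusted p = 0.00624) were called in every fit run.

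Neutrophil genes were less clear. Of 15 in the table, 10 were tested and 4 were higher, beside 6.4% of all genes, with a median of 2.81. The defining granule genes Mpo, Elane, Camp and Ngp were too low to be tested. S100a8, a calcium-binding alarmin of neutrophils, stood at 0.258, 0.356 and 0.414 CPM in Control and at 1.17, 3.32 and 10.2 CPM in UCS (3.81, SE 1.06, adjusted p = 0.0407). The G-CSF receptor Csf3r stood at 4.07, 3.44 and 4.87 CPM in Control and at 11.6, 22.8 and 36.4 CPM in UCS (2.51, SE 0.58, adjusted p = 0.0172). For both genes every UCS library was above every Control library, and UCS replicates 1 and 3 were far apart. Without any single Control library or UCS replicate 3, the list kept 1 called member, and without UCS replicate 2 it kept 2. Csf3r then had an adjusted p of up to 0.0758 and S100a8 of up to 0.184. Under limma-voom the adjusted p were 0.142 and 0.472 and the list had 1 called member, whereas DESeq2 called 9. The chemokine receptor Cxcr2 (1.46, adjusted p = 0.0985) and S100a9 (2.75, adjusted p = 0.107) were not called by edgeR and were by DESeq2 (adjusted p = 0.0227 and 0.0294).

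Chemokines and their receptors were higher for 14 of 33 members and lower for none (median 1.92), beside 6.4% and 4.47% of all genes. Cxcl5, a neutrophil attractant of epithelia, stood at 3.96, 8.84 and 3.83 CPM in Control and at 33.8, 28.6 and 54 CPM in UCS (2.82, SE 0.54, adjusted p = 0.00631). Cxcl17, a mucosal chemokine, stood at 0.0515, 0.0593 and 2.17 CPM in Control and at 24.1, 11.5 and 22.5 CPM in UCS (4.63, adjusted p = 0.00305). In Control replicates 1 and 2 it was under the level of 3 counts. Without Control replicate 1 the count was 7 and without UCS replicate 3 it was 8.

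The platelet-type chemokine Ppbp (chr5:90768518-90770063), close to Cxcl5 on the chromosome, stood at 0.464, 1.3 and 3.11 CPM in Control and at 168, 200 and 214 CPM in UCS (6.89, SE 0.70, adjusted p = 0.000194). Its neighbour Pf4 rose from between 2.27 and 3.68 CPM to between 8.24 and 17.2 CPM (2.14, adjusted p = 0.00067). They were the 2 members called of 9 tested erythrocyte and platelet genes, beside 10.9% of all genes called either way. The median of those 9 genes was -0.69.

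Inflammatory cytokines and receptors were higher for 10 of 31 members and lower for none (median 0.76), beside 6.4% and 4.47% of all genes. Without single libraries, however, 4 to 8 were called. There were 4 without Control replicate 1 or UCS replicate 3, 5 without Control replicate 2 and 6 without UCS replicate 2 or under limma-voom. Casp1, the protease that matures interleukin 1 beta, rose from between 2.42 and 6.32 CPM to between 22.4 and 36.4 CPM (2.66, adjusted p = 0.00037). Csf3, the cytokine G-CSF, stood at 0.412, 0.534 and 0.673 CPM in Control and at 13, 3.91 and 14.2 CPM in UCS (4.25, adjusted p = 0.00488), and missed the threshold under limma-voom (adjusted p = 0.103). Il1b had 0.566, 1.6 and 1.86 CPM in Control and 3.51, 6.21 and 24.9 CPM in UCS. All UCS values were above Control, yet Il1b was not called by edgeR (3.11, SE 1.05, adjusted p = 0.0916). It was called by DESeq2 (adjusted p = 0.0126) and with only the libraries with Dbp above Arntl (adjusted p = 0.0418). Tnf, at 15.6 to 26.5 CPM in Control and 9.65 to 15.5 CPM in UCS, was not called either (-0.76, adjusted p = 0.216).

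Of the antimicrobial proteins 10 of 18 were higher and 1 lower (median 1.998), beside 6.4% and 4.47% of all genes. With only the libraries with Dbp above Arntl, 6 were higher. Lactoferrin, Ltf, stood at 22.8, 73.5 and 104 CPM in Control and at 349, 446 and 830 CPM in UCS (3.02, SE 0.51, adjusted p = 0.00305). Wfdc2, a protease inhibitor of mucosal secretions, rose by 2.20 (adjusted p = 0.000289). Toll-like receptor genes were higher for 5 of 18 members, beside 6.4% of all genes. The nucleic acid sensors Tlr8 (2.26, adjusted p = 0.00236) and Tlr13 (1.63, adjusted p = 0.00476) were among those higher. The count of 5 fell to 2 without UCS replicate 2 and to 3 without UCS replicate 3 or any single Control library. It was 2 with only the 2 groups' libraries. Saa3, an acute-phase apolipoprotein, had 0.178 to 0.311 CPM in Control and 5.05, 27.9 and 49.9 CPM in UCS (6.85, adjusted p = 0.0171), a call lost without any single Control library (adjusted p up to 0.0689) and under limma-voom (adjusted p = 0.372). Summed over the T and NK cell list, Control libraries held 12.93, 13.11 and 21.8 CPM and UCS libraries 19.66, 22.55 and 51.88 CPM. These ranges overlapped, UCS replicate 3 being the one high library. Of 13 tested T and NK cell genes 2 were higher, beside 6.4% of all genes. That count was 1 without Control replicate 1 or 2 or UCS replicate 3. The mast cell list had 1 of 6 lower, beside 4.47% of all genes. This was Kit, the stem cell factor receptor, which melanocytes also carry, and it fell by 1.28 (adjusted p = 0.01).

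A core of NF-kB sites, GGG, any 2 bases and TTTCC on both strands, was searched in the same promoters. It occurred in 1 of 8 higher and 3 of 15 uncalled chemokine and receptor genes with a promoter, and in 2 of 9 higher and 1 of 15 uncalled inflammatory genes, against 1.99% of tested genes with a promoter. The E-box CACGTG, the same on both strands, occurred in 5 of 16 clock genes, none of them called, against 10.7% of tested genes with a promoter.

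Matrix-degrading enzymes and their inhibitors were higher for 10 of 20 members and lower for 1 (median 0.97), beside 6.4% and 4.47% of all genes. The collagenase Mmp13 stood at 0.721, 1.07 and 1.14 CPM in Control and at 6.38, 12.6 and 22.4 CPM in UCS (3.82, SE 0.62, adjusted p = 0.00244). Mmp9, a gelatinase of wounded corneal epithelium, stood at 1.18, 0.771 and 1.86 CPM in Control and at 4.09, 15 and 15.5 CPM in UCS (3.16, SE 0.59, adjusted p = 0.00555). Both genes were above Control in each UCS library, lowest in UCS replicate 1. The inhibitor Timp1 rose by 2.71 (adjusted p = 0.00131). The list had 6 called without Control replicate 1 or UCS replicate 3 and by limma-voom, and Mmp9 was not called by limma-voom (adjusted p = 0.107).

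Wound matrix and crosslinking genes were higher for 8 of 24 members and lower for 2, beside 6.4% and 4.47% of all genes. Leaving out any one of the 6 libraries left 1 lower, and only the libraries with Dbp above Arntl gave 5 higher. Tenascin C, Tnc, a matrix glycoprotein of healing tissue, stood at 13.3, 9.25 and 18.1 CPM in Control and at 57.9, 158 and 117 CPM in UCS (3.03, SE 0.49, adjusted p = 0.00244). Lysyl oxidase, Lox, rose by 1.64 (adjusted p = 0.00397), thrombospondin Thbs2 by 1.47 (adjusted p = 0.000749) and the hyaluronan synthase Has2 by 2.13 (adjusted p = 0.00235). Transglutaminase 2, Tgm2, was an exception, at 474, 791 and 412 CPM in Control and 80.4, 66.5 and 97.7 CPM in UCS (-2.78, SE 0.29, adjusted p = 0.000228). The leucine-rich repeat gene Lrrc15, of activated fibroblasts, rose from between 0.119 and 0.466 CPM to between 3.67 and 17.6 CPM (5.05, adjusted p = 0.00203; 0.0615 under limma-voom), and Dynap, chosen among the 12 largest gains, rose by 5.00 (adjusted p = 0.000839).

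Genes of the resting stroma were mostly not called, as were most genes tested. Of 16 keratocyte genes none was higher and 2 were lower, beside 6.4% and 4.47% of all genes. The 2 lower genes were Aldh3a1 and Tkt, which the epithelium also makes. Keratocan, Kera, had 371, 300 and 198 CPM in Control and 216, 185 and 145 CPM in UCS (-0.67, adjusted p = 0.257). Lumican, Lum, had 317 to 476 CPM in Control and 585 to 841 CPM in UCS (0.80, adjusted p = 0.0575), and was called by DESeq2 and limma-voom. Both stromal markers were thus present in every library, also where Krt12 was nearly absent. Among 24 collagens 3 were higher, or 6 with clock phase as a term, and 1 lower, beside 6.4% and 4.47% of all genes. Col14a1 rose by 1.49 (adjusted p = 0.00226). Col17a1, the hemidesmosomal collagen that anchors basal cells, fell from between 906 and 1214 CPM to between 292 and 357 CPM (-1.69, adjusted p = 0.000935). Col1a1, with 479 to 913 CPM in Control and 972 to 1415 CPM in UCS, was not called (0.75, adjusted p = 0.149) except with clock phase as a term (adjusted p = 0.00672).

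In the TGF-beta pathway 4 of 25 genes were higher and 2 lower, beside 6.4% and 4.47% of all genes. The higher count was 2 without Control replicate 1 or 3 or UCS replicate 2 and 1 in only the libraries with Dbp above Arntl. The receptors went in opposite directions. Tgfbr1 stood at 98.9, 93 and 93.2 CPM in Control and at 54.6, 56.1 and 55 CPM in UCS (-0.78, SE 0.10, adjusted p = 0.000772). Tgfbr2 stood at 54.1, 64.9 and 58.8 CPM in Control and at 98.5 to 103 CPM in the UCS libraries (0.77, SE 0.10, adjusted p = 0.00089). The target Tgfbi, an abundant corneal matrix protein, fell by 1.198 (adjusted p = 0.00349). Acta2, the actin of myofibroblasts, at 408 to 588 CPM in Control and 501 to 740 CPM in UCS, was not called (0.29, adjusted p = 0.499). The laminin chain Lamb3 rose from between 27.7 and 30.5 CPM to between 62.1 and 65.5 CPM (1.10, adjusted p = 0.00693).

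**Figure D4:**
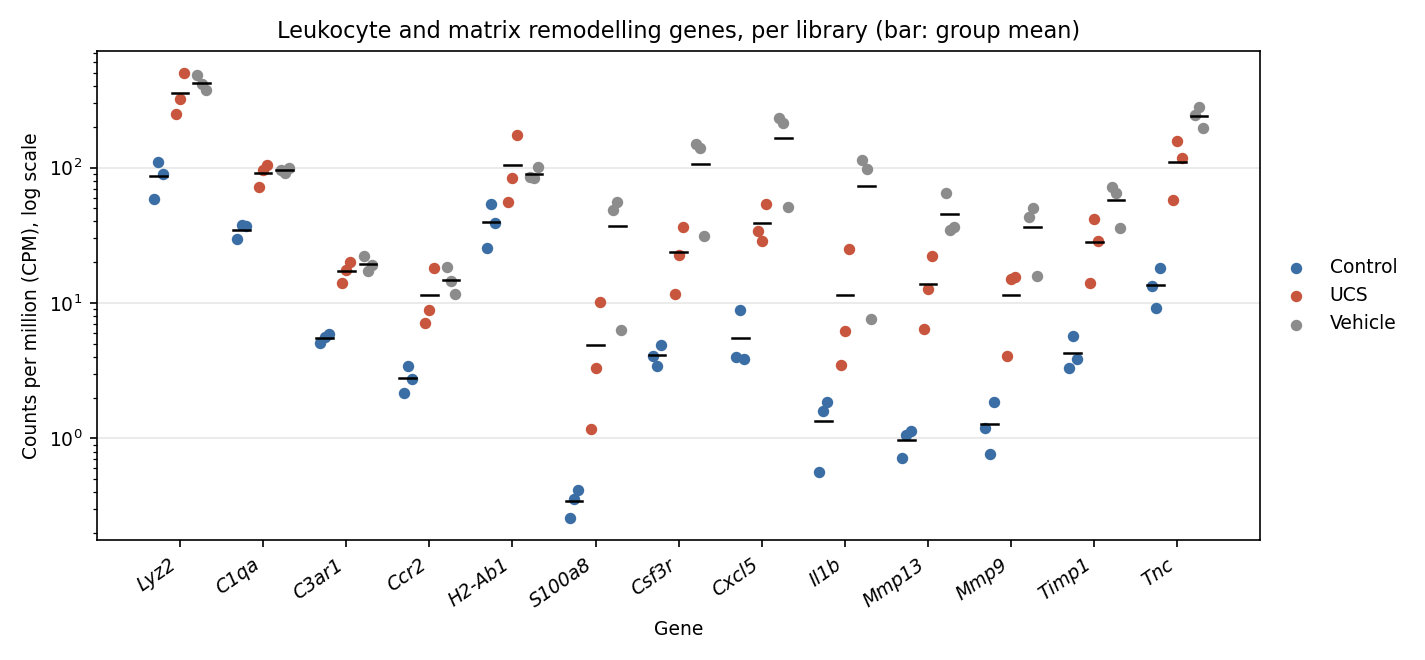
Points are single libraries of Control, UCS and Vehicle corneas and bars are group means, with CPM on a log axis for 13 leukocyte and matrix genes. UCS lies above Control for each gene, narrowly for H2-Ab1, and for S100a8, Csf3r, Cxcl5, Il1b and Mmp13 the Vehicle mean is higher still, with wide scatter within groups.

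Among genes of sensory neurons and their channels 1 of 11 was called, beside 10.9% of all genes called either way. Piezo2 (chr18:63010213-63387716), the mechanically gated channel of touch, stood at 58.6, 41.9 and 52.5 CPM in Control and at 11.4, 14.2 and 11.3 CPM in UCS (-2.05, SE 0.19, adjusted p = 0.000115). The groups were far apart and the UCS libraries close together. Whether these reads come from nerve or from other corneal cells cannot be told from bulk counts. Of 27 neurotrophic genes 1 was lower and 1 higher, beside 4.47% and 6.4% of all genes. The ligand Ntf3 was lower (-0.95, adjusted p = 0.0115, or 0.0531 in libraries with Dbp above Arntl) and its receptor Ntrk3 higher (1.05, adjusted p = 0.00485). Ntrk2, the receptor of BDNF, had 173 to 182 CPM in Control and 102 to 136 CPM in UCS and was not called by edgeR (-0.61, adjusted p = 0.0671). It was called by DESeq2, with only the 2 groups' libraries and with the retina or muscle covariate, with adjusted p down to 0.0236.

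None of 24 axon growth and cytoskeleton genes and none of 16 Schwann cell genes was called by edgeR, beside 10.9% of all genes called either way. Gap43, a growth cone protein, had 4.39 to 6.16 CPM in Control and 5.68 to 10 CPM in UCS (0.65, adjusted p = 0.151, or 0.0272 with the retina covariate), and the neuronal tubulin Tubb3 had 4.45 to 9.53 CPM and 8.08 to 10.8 CPM (0.25, adjusted p = 0.8). Summed over the 24 axon growth and cytoskeleton genes, Control libraries held 1220 to 1320 CPM and UCS libraries 1240 to 1540 CPM. Cell bodies of the corneal nerves lie outside the cornea. Which cells these reads come from was not tested.

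In the Wnt pathway 4 of 35 genes were lower and 2 higher (median -0.22), beside 4.47% and 6.4% of all genes. Leaving out any one of the 6 libraries left 1 higher, and DESeq2 called 7 lower. The ligand Wnt2 stood at 9.37, 16 and 9.47 CPM in Control and at 2.02, 1.5 and 1.58 CPM in UCS (-2.77, SE 0.28, adjusted p = 0.000194). Wnt3a fell by 2.86 (adjusted p = 0.00154), Wnt9a by 1.03 (adjusted p = 0.00235) and the receptor Fzd6 by 0.99 (adjusted p = 0.000697), whereas Fzd1, another receptor, rose by 0.74 (adjusted p = 0.00166). The 3 ligands and Fzd6 were called lower in every fit run.

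Glycolysis and glycogen genes were lower for 3 of 29 members and higher for none, beside 4.47% and 6.4% of all genes. Beside Ppp1r3c and Tkt this was the glycogen phosphorylase Pygl, at 156, 178 and 142 CPM in Control and 35.3, 60.1 and 27.4 CPM in UCS (-1.95, adjusted p = 0.00594). The sterol-regulated gene Insig1 was lower (-0.92, adjusted p = 0.00635) and the cholesterol exporter Abca1 was higher (0.79, adjusted p = 0.00779). Of 24 cholesterol genes 4 were lower and 1 higher, beside the same shares of all genes. The lower count was 2 without Control replicate 2 or UCS replicate 2 or 3. It was 1 in only the libraries with Dbp above Arntl and 7 with the retina covariate. Pygl and Insig1 were not called in the libraries with Dbp above Arntl alone, with adjusted p of 0.103 and 0.0726. Of 24 NRF2 target and oxidative stress genes 3 were higher and 1 lower, beside 6.4% and 4.47% of all genes. The higher count was 2 without any one of 4 libraries (Control replicates 1 and 3, UCS replicates 1 and 2) and 1 without UCS replicate 3. Among the higher was Gclm, a subunit that limits glutathione synthesis (0.69, adjusted p = 0.00235). Among 20 water and ion transport genes, the carbonic anhydrase Car12 rose from between 21.6 and 33.2 CPM to between 133 and 178 CPM (2.57, SE 0.23, adjusted p = 0.000112) and the sodium channel subunit Scnn1b rose by 1.95 (adjusted p = 0.00347). Hlf, a clock output factor, was the 1 called of 19 clock genes (-0.96, adjusted p = 0.00631), beside 10.9% of all genes called either way. Fos fell by 1.197 (adjusted p = 0.0126). The proliferation marker Mki67, at 62.6 to 142 CPM in Control and 64 to 106 CPM in UCS, was not called (-0.19, adjusted p = 0.876).

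**Figure D5:**
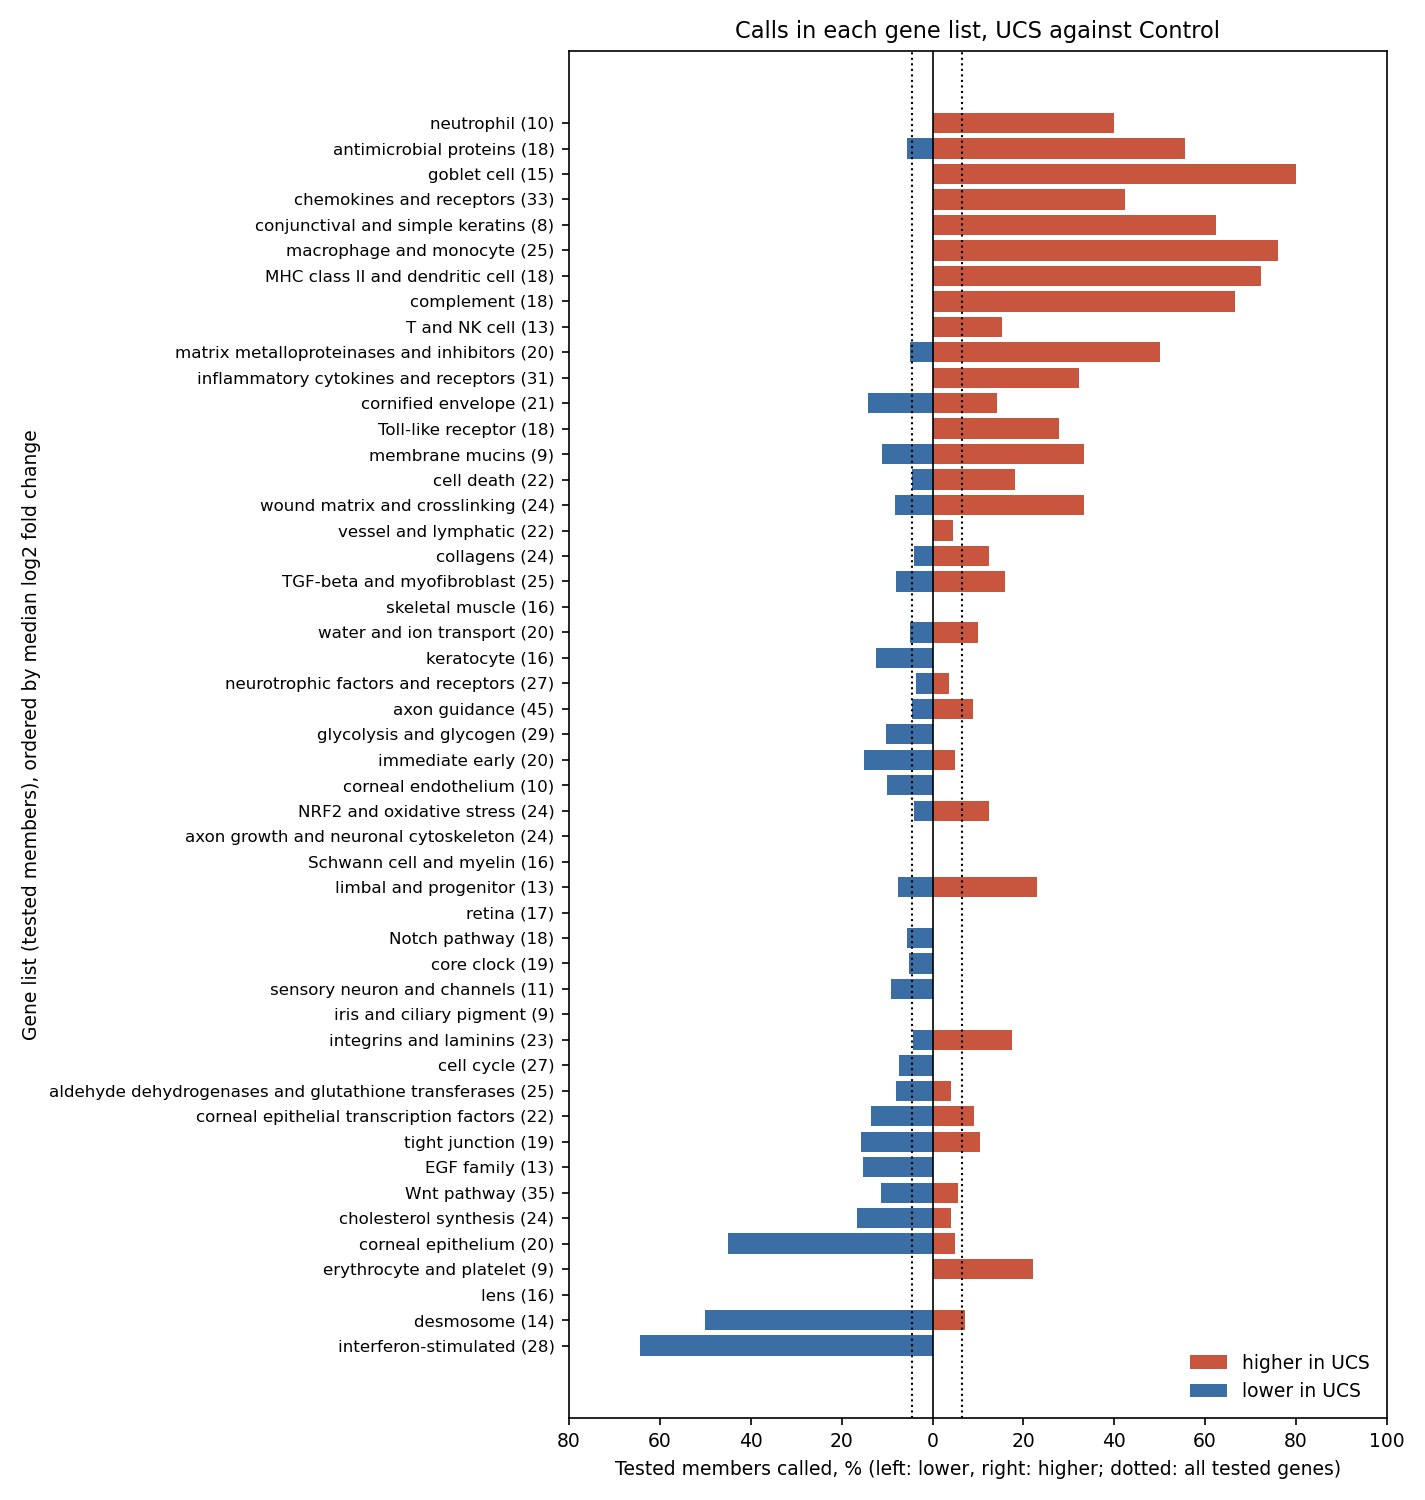
Bars give the share of each list's tested members called higher (right) or lower (left) in UCS against Control, for lists with at least 8 tested members, in order of median log2 fold change; dotted lines mark all tested genes (6.4% and 4.47%). Goblet cell, macrophage and MHC class II lists reach farthest to the right, and interferon-stimulated, desmosome and corneal epithelium lists farthest to the left.

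Vehicle corneas, injured and given no biologic, were measured against the same 3 Control libraries, with 1545 genes higher (9.58%) and 1116 lower (6.92%). Because the Control libraries are shared, values are given side by side and not as an agreement between comparisons. Krt12 stood at 9.19, 7.18 and 23.9 CPM in Vehicle against 18.9, 40.3 and 8.68 CPM in UCS, overlapping ranges. Muc5ac stood at 655, 457 and 519 CPM in Vehicle, above the 3 UCS values, and Isg15 at 53.2, 42.8 and 57 CPM, overlapping them. The macrophage list had 23 of 25 members higher in Vehicle and the neutrophil list 9 of 10, beside 9.58% of all genes. The neutrophil median was 4.66 beside 2.81 in UCS.

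Tested directly, no gene differed between UCS and Vehicle at an adjusted p under 0.05 by edgeR's quasi-likelihood test, where the smallest adjusted p was 0.894. At an unadjusted p under 0.05 there were 782 genes (4.85%), 254 higher and 528 lower in UCS. DESeq2 called 13 genes, 2 higher and 11 lower, and limma-voom none. The difference in Krt12 was 0.75 (SE 1.16) and that in Muc5ac -0.54 (SE 0.39) on the log2 scale. Cxcr2 stood at 50.7, 49.3 and 11.1 CPM in Vehicle and at 5.58, 7.87 and 9.7 CPM in UCS (-2.26, SE 0.49, unadjusted p = 0.000702, adjusted p = 0.894 by edgeR). Muc5b (-1.52), Cxcl5 (-2.10), Csf3r (-2.18), S100a8 (-2.91) and Thbs2 (-0.75) had unadjusted p from 0.00153 to 0.00449 in the same direction, with the same adjusted p by edgeR. Cxcr2, Cxcl5 and Csf3r were among the 13 genes that DESeq2 called. Tnfsf18, a ligand of the TNF family, was higher in UCS than in Control (2.74, adjusted p = 0.00603) and stood at 0.46 to 1.06 CPM in UCS against 0.195 to 0.255 CPM in Vehicle (1.76, unadjusted p = 0.00291, adjusted p = 0.894). Between UCPRP and UCS no gene was called by edgeR, DESeq2 or limma-voom, with 393 genes (2.44%) at an unadjusted p under 0.05 in edgeR.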

How the data were processed

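Per the labels' protocols, RNA came from Qiagen RNeasy columns and sequencing libraries from the TruSeq Stranded Total RNA kit. HISAT and GRCm38 are named in the submitters' processing notes. The sources used here do not give the counting tool, its annotation or its strand setting, so reads of overlapping or antisense genes cannot be told apart. The deposited values are the authors' estimated counts for each gene, one column a library, per the file headers. Of these values 64.9% were whole numbers, and all were rounded to whole counts before testing. Genes were filtered with filterByExpr (minimum count 10) over all 12 libraries, scaled with TMM (factors 0.825 to 1.067) and fitted in edgeR 4.0.16 (R 4.3.3) for its quasi-likelihood F test, with 1 term per group and all 4 groups sharing the dispersion (common biological coefficient of variation 0.227). Benjamini-Hochberg adjustment ran over 16124 genes, and calls needed an adjusted p under 0.05. CPM use TMM-scaled library sizes. The median SE of a log2 fold change was 0.172, and the chi-square of counts between libraries of a group was at least 17.7 per degree of freedom, so replicates differed beyond counting noise. Nothing says whether pools came from separate experiments, so p-values measure the spread between pools. A gene with 0 counts in a group has its fold bounded by 3 counts per library, and for 1 to 3 counts the totals are divided and given a 95% interval. Both cover counting error only. Of 19702 genes, 19644 matched RefSeq (GRCm38.p6), which gave coordinates and promoters. Gene members and the 54 lists were chosen with earlier results of these data known. Genes were named by a rule (the 12 largest changes each way at 5 CPM or more without group overlap and leaving out unnamed gene models, the 8 largest CPM differences, the 5 smallest adjusted p, up to 6 called and 2 other members per list, a fixed set, and 6 extremes against Vehicle). Upk1b, Spdef, Oas1a, Oasl2, Ifit1, Ifit2, Ifit3, Irf7, Stat2, Bst2, Gbp3, Dsg1b, Dsg1c, Ifnl3 and Ifnlr1 were named after their values were seen. Not every gene that the rule allows is described. The analysis was tested on simulated data. Alternatives were DESeq2 1.42.0, limma-voom (limma 3.58.1), DESeq2 size factors, no filter, fewer groups, a replicate block, clock phase, tissue covariates and leaving out libraries.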

Additional observations from a re-analysis of the deposited data

How the results depend on the processing

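Across 10 alternatives and 6 fits that left out 1 Control or UCS library, the counts of genes at least 1 log2 unit higher (608) or lower (293) in UCS stayed within 1.5 times. The counts of all higher (1032) and lower (721) genes became 604 and 423 when only the 8 libraries with Dbp above Arntl were fitted, and the lower count became 1136 with the retina list as covariate. Leaving out 1 library gave 655 to 918 higher and 427 to 718 lower genes. For Vehicle against Control, libraries with Dbp above Arntl alone gave 393 higher and 181 lower genes (1 Vehicle library, assumed to vary like the other groups), the 2 groups' libraries alone gave 604 lower and the muscle covariate gave 620 lower. DESeq2 called 13 genes between UCS and Vehicle where edgeR called 0. Deviations of same-numbered Control and UCS libraries from their group means had correlations of -0.227, -0.268 and 0.164. With 3 libraries per group such values constrain each other, so they cannot tell whether the numbers mark a shared batch. A fit with the replicate number as a block gave 882 higher and 611 lower genes. Under that block 3 of 129 named calls were lost (Krt15, S100a8 and Sprr2d), Krt15 with an adjusted p of 0.0547. Of the 129 called genes named, 105 kept their call under all 16 settings, Tnfsf18 did in the 15 that fitted it, and none changed sign. Of the 19 uncalled genes given with a fold change, 5 stayed uncalled with the same sign under every setting. A further 9 were called in at least 1 setting, 7 of them by DESeq2, and 5 changed sign. Leaving out single libraries gave Krt6a -0.43 to 0.017, Gbp2 -0.31 to 1.16, Bst2 -0.15 to 0.258, Tubb3 -0.021 to 0.442 and Mki67 -0.415 to 0.22. In libraries with Dbp above Arntl, Bst2 was -0.08 and Mki67 0.23. The causes of these shifts were not tested. At these depths 3 counts equal 0.153 to 0.178 CPM in the UCS and Control libraries, below which levels were not resolved.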
